A study of Mus musculus with 2 samples.

Results

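The Wnt signalling genes described here are the Wnt ligands, their Frizzled receptors and Lrp5 and Lrp6 co-receptors, and the secreted proteins that block or boost the signal. They were taken by symbol from the annotation: every protein-coding gene called Wnt, Fzd, Sfrp, Dkk or Rspo with a number and at most one letter, plus Frzb, Lrp5 and Lrp6. This gave 44 genes of the 21474 protein-coding genes measured: 19 Wnt ligands, 10 Frizzled receptors, 2 co-receptors, 5 secreted Frizzled-related proteins (sFRPs), 4 Dickkopf (Dkk) proteins and 4 R-spondins. RNA of whole hearts from B6NCrl mouse embryos of day 15.5, both sexes mixed, was sequenced in 2 libraries that form 1 group, with 78 embryos pooled in replicate 1 and 62 in replicate 2. No genotype, treatment or other time point was compared. Each value below is a level in RNA labelled as embryonic heart, which also held markers of other tissues. The spread is one between pools and not between embryos.

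Wnt proteins are lipid-bearing secreted signals that bind Frizzled receptors. In the canonical branch a Wnt also engages Lrp5 or Lrp6, which stops the breakdown of beta-catenin and lets it work with TCF/LEF factors on target genes, whereas the non-canonical branches act on cell polarity, movement and calcium without it. sFRPs bind Wnts outside the cell, Dkk1, Dkk2 and Dkk4 bind Lrp5 and Lrp6, and R-spondins protect Frizzled receptors from removal. In the mouse heart, Wnt5a and Wnt11 are known for their part in outflow tract formation, and canonical signals for their part in progenitor and valve growth.

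Sfrp2, Dkk3 and Sfrp1, classed here as antagonists by their family, were the most abundant of these transcripts at this stage. Most of the summed ligand TPM came from non-canonical ligands. Abundance is given in TPM, a unit scaled to the same total in each library that divides by transcript length, so that levels of different genes can be set side by side. At 1 TPM or more in both libraries, 29 of the 44 genes (65.9%) were detected, against 58.2% of all protein-coding genes. The detected genes were not abundant ones: their median was 5.31 TPM, against 15.8 TPM over all detected protein-coding genes. Over all 44 genes the median of log2(TPM + 0.1) was 1.24, against 1.85 over all protein-coding genes. Only 1 gene, Wnt8a, had 0 counts in both libraries, and 5 had 0 counts in 1 of them. In bulk RNA, fewer cells of a type and less RNA per cell cannot be told apart.

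**Figure D1:**
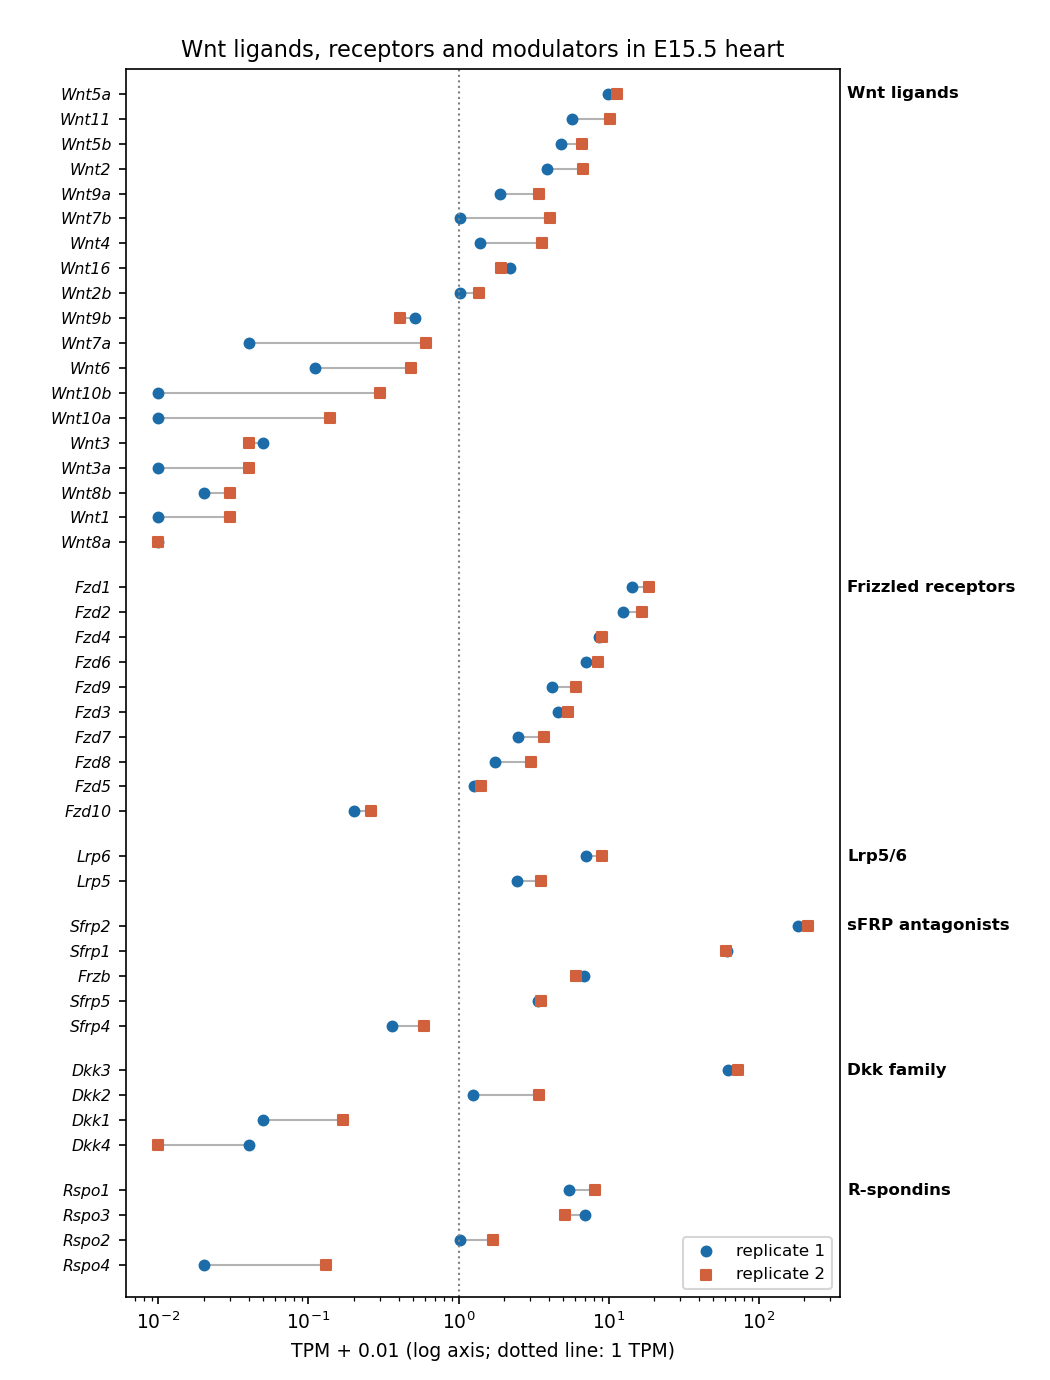
Level of each of the 44 genes in replicate 1 (circles) and replicate 2 (squares), as TPM + 0.01 on a log axis, grouped by class; the dotted line marks 1 TPM and grey lines join the libraries. Sfrp2, Dkk3 and Sfrp1 stand above 60 TPM in both libraries, and 10 of the 19 ligands lie below 1 TPM in at least 1 library.

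Libraries held 41221435 counts on genes in replicate 1 and 38457396 in replicate 2, and the tissue label was checked against marker genes. All 10 cardiomyocyte markers were detected, with a summed level of 26955 TPM in replicate 1 and 23070 TPM in replicate 2. Of 7 skeletal muscle markers, 3 were detected, with a sum of 161 TPM in replicate 1 and 157 TPM in replicate 2. Nearly all of that sum was Acta1 (152 and 147 TPM), an actin that the embryonic heart also makes, and Pax7 had 0 counts in both. Markers of other tissues were also present and differed between the libraries. Thymus markers summed to 7.98 TPM in replicate 1 and 85.3 TPM in replicate 2, liver markers to 45.4 and 209 TPM, lung epithelium markers to 133 and 337 TPM, and neural crest, glia and neuron markers to 14.1 and 64.8 TPM.

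Among the ligands, 9 of 19 were detected, and their summed level was 32.4 TPM in replicate 1 and 51.3 TPM in replicate 2 (41.8 ± 13.3 TPM; SD, n = 2). Wnt5a, a non-canonical ligand that acts through Ror2, had the highest mean, with 9.87 TPM in replicate 1 and 11.34 TPM in replicate 2. Wnt11, a non-canonical ligand of the outflow tract, had 5.74 and 10.21 TPM, and Wnt5b, the close relative of Wnt5a, had 4.78 and 6.60 TPM. In each library the order by whole-gene TPM was Wnt5a, Wnt11, Wnt5b, although the ranges over the pools overlap in turn. In protein-coding transcripts alone Wnt5b was above Wnt11 in each library, as given below. The highest canonical ligand was Wnt2, with 3.87 TPM in replicate 1 and 6.75 TPM in replicate 2, a range that overlaps that of Wnt5b.

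The other detected ligands were lower. Wnt9a, known in the mouse and chick for joint and valve development, had 1.88 and 3.44 TPM in replicates 1 and 2, and Wnt7b, known from the embryonic lung epithelium, had 1.02 and 4.09 TPM. Wnt4, a ligand of kidney and gonad formation, had 1.37 and 3.58 TPM, and Wnt16 had 2.19 and 1.90 TPM. Wnt2b, the relative of Wnt2, had 1.02 and 1.36 TPM. In the order by mean level, the ranges separated between Wnt2 and Wnt9a, between Wnt16 and Wnt2b, and between Wnt2b and Wnt9b, and overlapped between all other neighbours above these. Wnt2b and Wnt7b sit just above the detection threshold in replicate 1, and Wnt9b, a ligand of kidney duct cells, just below it with 0.50 and 0.40 TPM.

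Below that level, Wnt7a had 3 counts (0.03 TPM) in replicate 1 and 16 counts (0.60 TPM) in replicate 2. In replicate 2 protein-coding transcripts held 26.35% of the Wnt7a TPM, the rest falling to a noncoding transcript of 250 nt with 1.93 expected counts. In expected counts the protein-coding transcript held 87.9% in replicate 2, at 0.16 TPM, so the TPM share rests on the short length of the other. Wnt6 had 0.10 and 0.47 TPM, Wnt10b 0 and 0.29 TPM, and Wnt10a 0 and 0.13 TPM. The classic canonical ligands Wnt1, Wnt3, Wnt3a and Wnt8b, known from the early embryo and the nervous system, had between 0 and 4 counts in each library, at most 0.04 TPM. For Wnt8a, 0 counts allow a level of up to 0.0561 TPM in replicate 1 and 0.0628 TPM in replicate 2, taking 3 counts as the limit.

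Set against the canonical ligands, the non-canonical ones were higher in both libraries. The 4 non-canonical ligands (Wnt4, Wnt5a, Wnt5b and Wnt11), all detected, summed to 21.8 TPM in replicate 1 and 31.7 TPM in replicate 2. The 10 canonical ligands, of which only Wnt2 and Wnt2b were detected, summed to 5.44 TPM in replicate 1 and 9.03 TPM in replicate 2. The ratio was thus 4.00-fold in replicate 1 and 3.51-fold in replicate 2, a log2 ratio of 1.91 ± 0.13 (SD, n = 2). Within the canonical sum, Wnt2 alone held 71.1% in replicate 1 and 74.8% in replicate 2. The 5 ligands assigned here to both kinds of activity (Wnt6, Wnt7a, Wnt7b, Wnt9a and Wnt16) summed to 5.22 and 10.5 TPM. With all of them counted as canonical the mean log2 ratio was 0.86. No split that moved any of the 4 non-canonical ligands to another group was computed. With 2 libraries the smallest p of an exact sign-flip test is 0.5, so the ratio is given with its spread alone.

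**Figure D2:**
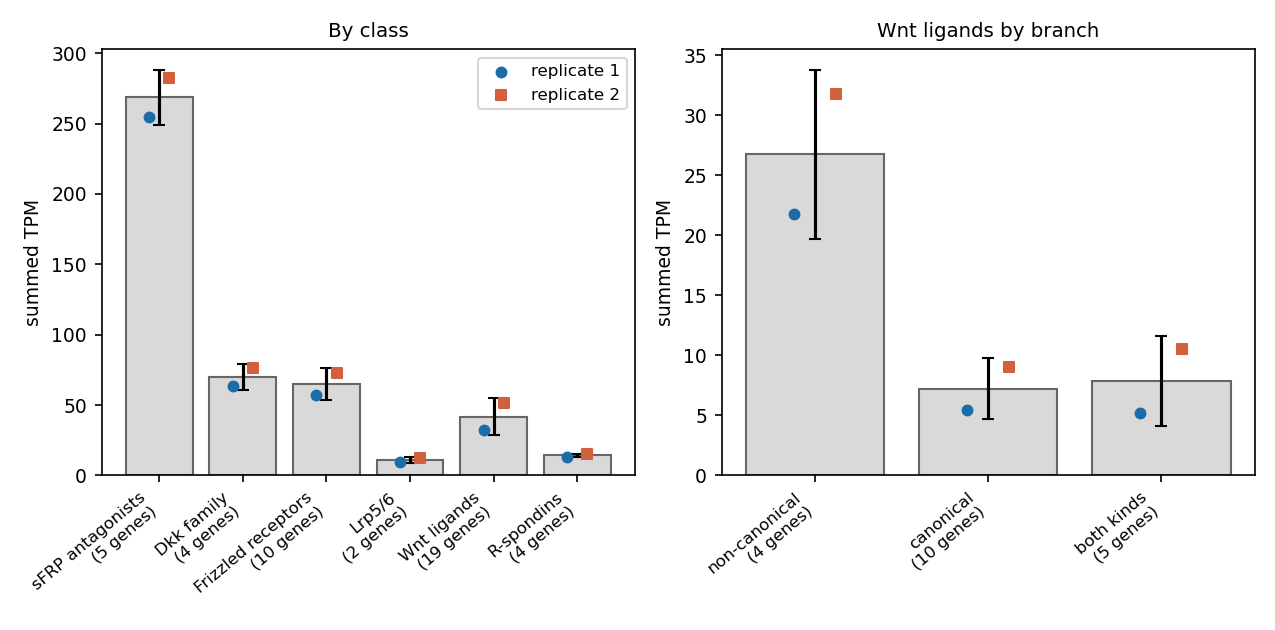
Summed TPM by class (left) and of the ligands by signalling branch (right); bars are the mean of 2 libraries, error bars the SD, circles replicate 1 and squares replicate 2. The sFRP sum reaches 254.75 TPM in replicate 1 and 282.59 TPM in replicate 2, and the non-canonical sum is above the canonical sum in both libraries.

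Wnt genes lie in pairs at 4 places of the mouse genome, and Wnt9a was the only gene of these pairs detected in both libraries. On chromosome 11, Wnt9a and Wnt3a start 16.2 kb apart on opposite strands, with no coding gene between them. Wnt9a had 1.88 and 3.44 TPM in replicates 1 and 2, while Wnt3a had 0 and 0.03 TPM. Also on chromosome 11, Wnt9b (0.50 and 0.40 TPM) lies 24.3 kb from Wnt3 (0.04 and 0.03 TPM). In the other pairs both genes were low: Wnt6 lies 6.19 kb from Wnt10a on chromosome 1, and Wnt10b lies 11.7 kb from Wnt1 on chromosome 15. Promoter windows of the Wnt9a and Wnt3a pair are shown because the genes are neighbours with unlike levels. Each runs from 250 bases before to 50 bases after the RefSeq start (GRCm38.p6), with CpG dinucleotides (the letters CG, which read the same on both strands) in capitals. These are Wnt9a at chr11:59306680-59306979 on the plus strand and Wnt3a at chr11:59290702-59291001 on the minus strand.
Wnt9a: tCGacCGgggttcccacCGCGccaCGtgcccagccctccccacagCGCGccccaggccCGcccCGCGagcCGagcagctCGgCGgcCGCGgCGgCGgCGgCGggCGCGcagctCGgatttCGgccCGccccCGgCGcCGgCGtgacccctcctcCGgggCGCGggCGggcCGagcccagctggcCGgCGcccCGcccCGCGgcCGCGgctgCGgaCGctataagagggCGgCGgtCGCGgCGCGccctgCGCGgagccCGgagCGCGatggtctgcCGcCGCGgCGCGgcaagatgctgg
Wnt3a: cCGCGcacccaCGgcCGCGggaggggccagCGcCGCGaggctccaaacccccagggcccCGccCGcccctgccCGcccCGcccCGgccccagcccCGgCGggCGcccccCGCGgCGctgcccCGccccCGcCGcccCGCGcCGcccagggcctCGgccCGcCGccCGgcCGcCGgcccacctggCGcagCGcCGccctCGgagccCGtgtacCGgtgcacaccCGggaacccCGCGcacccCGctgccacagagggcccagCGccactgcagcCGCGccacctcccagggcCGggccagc

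Both windows are dense in CpG, with 58 in Wnt9a and 45 in Wnt3a. The median over the 20150 protein-coding promoter windows of the same length was 14 CpG, and 95.6% of them held at least 1. As many CpG as in Wnt9a were found in 0.139% of those windows, and as many as in Wnt3a in 2.56%. Both the detected and the undetected gene of the pair thus have windows above the median.

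Transcripts of Wnt5b and Wnt11 begin at several annotated starts, and the share from each start was estimated in both libraries. Wnt5b (chr6:119432531-119544347, minus strand) has 4 transcripts in 3 start regions, all protein-coding. The upstream start region held 77.7% of the Wnt5b TPM in replicate 1 and 45.9% in replicate 2, and the next region held 22.3% and 54.1%. In expected counts the upstream share was 79.6% (95% Wilson interval 74.9 to 83.4) in replicate 1 and 48.8% (44.0 to 53.6) in replicate 2. These intervals do not overlap, but they leave out the error of assigning reads to transcripts, whose expected counts are fractional. Within the upstream region, Wnt5b-203 held 57.3% of the Wnt5b TPM in replicate 1 and 7.48% in replicate 2. Wnt5b-204 held 20.5% and 38.4%. The difference in start use is therefore an estimate. The TMM-scaled count of the whole gene differed by 1.14-fold (0.983 to 1.32). The third region had 0 counts in both. Wnt11 (chr7:98835112-98855195, plus strand) had 46.3% of its TPM from the upstream region in replicate 1 and 35.0% in replicate 2, and the rest from the second region. The Wnt11 shares in counts were 49.3% (43.9 to 54.8) in replicate 1 and 37.5% (33.3 to 41.8) in replicate 2. Windows of the start regions in use are shown since the start sets which promoter a transcript reports. For Wnt5b these are chr6:119544298-119544597 (upstream) and chr6:119467162-119467461 (second), both on the minus strand. For Wnt11 they are chr7:98834862-98835161 (upstream) and chr7:98838595-98838894 (second), both on the plus strand.
Wnt5b upstream: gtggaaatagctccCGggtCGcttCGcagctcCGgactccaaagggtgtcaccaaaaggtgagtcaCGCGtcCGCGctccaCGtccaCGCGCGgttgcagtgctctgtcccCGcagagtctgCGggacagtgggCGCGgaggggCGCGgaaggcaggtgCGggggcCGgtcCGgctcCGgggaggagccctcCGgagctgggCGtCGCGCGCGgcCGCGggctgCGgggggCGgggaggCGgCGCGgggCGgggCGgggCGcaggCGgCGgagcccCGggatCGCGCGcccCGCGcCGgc
Wnt5b second: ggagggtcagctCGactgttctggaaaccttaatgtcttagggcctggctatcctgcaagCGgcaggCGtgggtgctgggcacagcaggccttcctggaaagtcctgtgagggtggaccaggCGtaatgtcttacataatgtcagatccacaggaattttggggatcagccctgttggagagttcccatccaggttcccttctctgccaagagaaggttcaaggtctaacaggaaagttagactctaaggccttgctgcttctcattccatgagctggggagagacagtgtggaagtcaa
Wnt11 upstream: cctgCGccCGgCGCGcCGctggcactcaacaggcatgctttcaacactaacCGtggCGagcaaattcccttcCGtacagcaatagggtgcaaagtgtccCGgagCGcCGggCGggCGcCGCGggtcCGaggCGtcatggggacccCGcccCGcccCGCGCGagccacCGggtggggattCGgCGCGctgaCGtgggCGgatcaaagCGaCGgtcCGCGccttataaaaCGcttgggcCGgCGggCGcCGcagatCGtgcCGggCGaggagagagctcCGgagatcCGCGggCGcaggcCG
Wnt11 second: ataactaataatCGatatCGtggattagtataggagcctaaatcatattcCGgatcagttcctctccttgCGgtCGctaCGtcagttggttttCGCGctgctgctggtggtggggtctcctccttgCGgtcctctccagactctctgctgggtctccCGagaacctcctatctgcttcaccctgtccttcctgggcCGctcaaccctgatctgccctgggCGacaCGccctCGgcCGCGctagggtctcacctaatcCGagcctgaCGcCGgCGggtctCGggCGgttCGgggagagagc

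The start regions of Wnt5b are unlike in sequence. The upstream window holds 47 CpG and the second holds 4, and 1.87% and 77.5% of protein-coding promoter windows hold as many. In Wnt11 the upstream window holds 45 CpG and the second 23. Expected counts were thus assigned to both a CpG-poor and a CpG-rich start of Wnt5b, in estimated proportions that differed between the pools.

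Transcript type also differed among the ligands. For Wnt11, protein-coding transcripts held 45.3% of the TPM in replicate 1 and 54.7% in replicate 2, and the rest was assigned to transcripts annotated as targets of nonsense-mediated decay. In protein-coding transcripts alone, Wnt11 had 2.60 TPM in replicate 1 and 5.59 TPM in replicate 2. Wnt5b had 4.78 and 6.60 TPM by the same measure, above Wnt11 in each library, although the ranges overlap. Wnt5a drew 46.9% of its TPM in replicate 1 and 50.2% in replicate 2 from its upstream start, and protein-coding transcripts held 89.7% and 86.0%. In expected counts the upstream share of Wnt5a was 67.3% (64.9 to 69.6) in replicate 1 and 72.3% (70.0 to 74.5) in replicate 2. Wnt2 had 67.6% and 54.6% in its annotated protein-coding transcript, and its other transcript has no entry in the annotation used here. Among the 14 genes with several transcripts and at least 100 counts in both libraries, 1 (Wnt5b) had a transcript share that differed by 20 points or more, against 7.11% of such genes over all protein-coding genes. Another leading transcript in each library was found for 2 of the 14 (Wnt5b and Wnt11), against 9.16% over all.

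**Figure D3:**
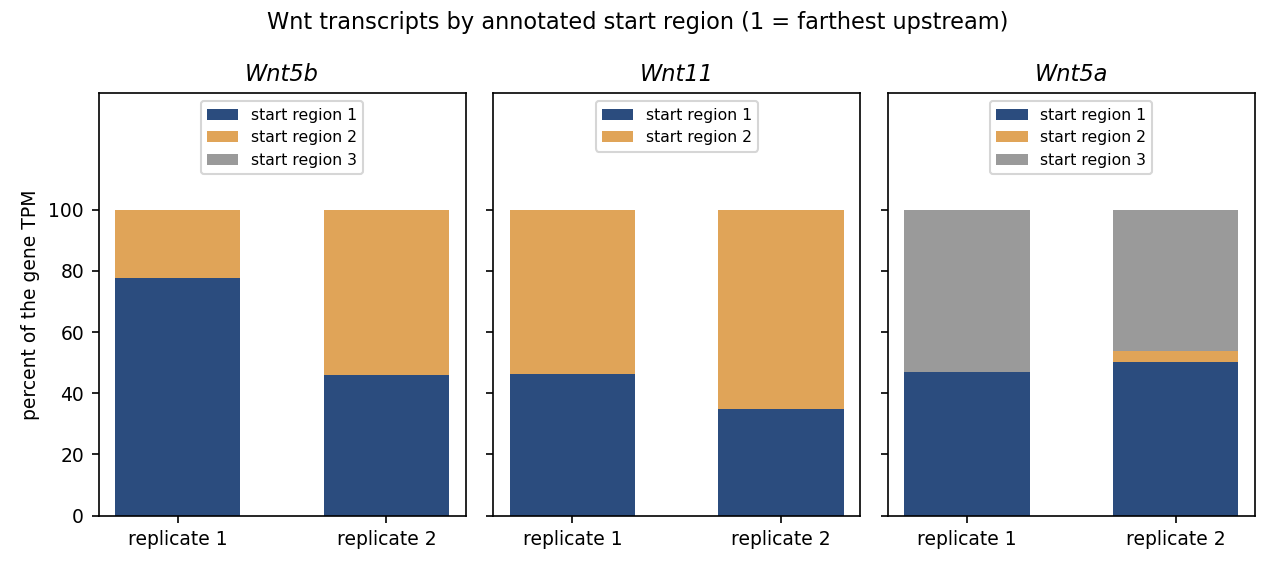
Share of the TPM of Wnt5b, Wnt11 and Wnt5a from each annotated start region in replicates 1 and 2, stacked to the whole gene, with region 1 farthest upstream. Region 1 of Wnt5b takes 77.7% in replicate 1 and 45.9% in replicate 2, while region 1 of Wnt5a takes 46.9% in replicate 1 and 50.2% in replicate 2.

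Frizzled receptors were broadly present, with 9 of 10 detected and a sum of 57.0 TPM in replicate 1 and 72.8 TPM in replicate 2. Fzd1 had 14.31 TPM in replicate 1 and 18.73 TPM in replicate 2, and Fzd2 had 12.52 and 16.75 TPM, so Fzd1 was the higher in each library although the ranges overlap. Fzd4, which is known as the receptor of Norrin in vessels as well as of Wnts, had 8.67 and 8.99 TPM. Fzd6, a receptor of planar polarity, had 7.03 and 8.46 TPM, and its relative Fzd3 had 4.62 and 5.37 TPM. Fzd9 had 4.17 and 6.07 TPM, Fzd7 2.49 and 3.68 TPM, Fzd8 1.75 and 3.05 TPM and Fzd5 1.25 and 1.41 TPM. Fzd10 was the only receptor below the threshold, with 0.19 and 0.25 TPM. In this order the ranges overlapped between Fzd1 and Fzd2, between Fzd9 and Fzd3 and between Fzd7 and Fzd8, and were apart between all other neighbours; within each library only Fzd9 and Fzd3 changed places.

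Levels were also set beside the sequence families. Coding sequences of the same Frizzled family were 58.3% to 77.0% identical (8 pairs), against 44.7% to 60.5% for pairs of different families (37 pairs). The Fzd1, Fzd2 and Fzd7 family had the highest sum, with 29.3 TPM in replicate 1 and 39.2 TPM in replicate 2, and the Fzd5 and Fzd8 family the lowest, with 3 TPM in replicate 1 and 4.46 TPM in replicate 2. Fzd2 and Fzd7 were the closest pair, at 77.0% identity, yet Fzd2 was the higher of them by more than the spread of the pools. Fzd9 and Fzd10, 68.1% identical, were likewise apart. Reads that fit both of 2 such paralogs would be shared out by the counting, but the counts of all these receptors except Fzd5 were whole numbers within 0.01.

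Both co-receptors were detected. Lrp6 had 7.05 TPM in replicate 1 and 9.03 TPM in replicate 2, and Lrp5 had 2.45 and 3.55 TPM. Lrp6 was 2.88-fold above Lrp5 in replicate 1 and 2.54-fold above it in replicate 2.

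The secreted antagonists were led by 3 genes. Sfrp2 had 183 TPM in replicate 1 and 212 TPM in replicate 2, above 97.1% of all protein-coding genes by mean level, and took 42.5% and 41.5% of the summed TPM of the 44 genes. Sfrp1, a relative with the same kind of Wnt-binding domain, had 61.2 and 60.4 TPM. Dkk3 had 62.2 and 72.6 TPM; it is the divergent Dkk protein, not known to bind Lrp5 and Lrp6 as the others do. Frzb, also called sFRP3, had 6.81 and 6.10 TPM and Sfrp5 3.39 and 3.54 TPM, while Sfrp4 lay below the threshold with 0.35 and 0.58 TPM.

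Of the Dkk proteins that act on Lrp5 and Lrp6, Dkk2 alone was detected, with 1.23 TPM in replicate 1 and 3.45 TPM in replicate 2. Dkk1, the best known of them and itself a beta-catenin target, had 3 counts (0.04 TPM) in replicate 1 and 11 counts (0.16 TPM) in replicate 2. Dkk4 had 1 count in replicate 1 and 0 in replicate 2. Dkk3 therefore made up 98.0% of the Dkk sum in replicate 1 and 95.3% in replicate 2.

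Antagonists exceeded ligands in both libraries. The 9 sFRP and Dkk genes summed to 318 TPM in replicate 1 and 359 TPM in replicate 2, against 32.4 and 51.3 TPM for the 19 ligands. This is 9.82-fold in replicate 1 and 7.0-fold in replicate 2, a log2 ratio of 3.05 ± 0.34 (SD, n = 2), and 2.73 when Dkk3 is left out. The median gene was also higher among the antagonists, with 3.47 TPM, against 0.45 TPM among the ligands. Without Sfrp2 and Wnt5a, the highest gene of each side, the log2 ratio was 2.23. That ratio still holds Dkk3 and Sfrp1, with means of 67.4 and 60.8 TPM, while no other antagonist was above 6.81 TPM (Frzb in replicate 1). The excess thus rests on these genes and Sfrp2, and no ratio without all of them was computed. The sFRPs also exceeded the Frizzled receptors, by 4.47-fold in replicate 1 and 3.88-fold in replicate 2. These are ratios of RNA, and the proteins were not measured.

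R-spondins, the boosters of the signal, were detected for 3 of 4 genes. Rspo1 had 5.45 TPM in replicate 1 and 8.17 TPM in replicate 2, and Rspo3, known for coronary vessel growth in the mouse, had 6.92 and 5.11 TPM. Their order thus differed between the libraries. Rspo2 had 1.02 and 1.70 TPM, and Rspo4 had 1 and 8 counts, at most 0.12 TPM.

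Several of the lower genes differed between the libraries. Counts were scaled with the TMM method, and 36 of the 44 genes had 10 counts or more in at least 1 library. Of these, 7 were higher in replicate 2 by 2-fold or more, against 9.54% of the protein-coding genes, and 0 were lower by as much, against 0.903%. Of the 7, 4 (Wnt7a, Wnt6, Dkk1 and Wnt10b) reached 10 counts in replicate 2 only, so the filter itself favours their difference, and the count supports nothing on its own. With a mean of at least 10 counts, a filter chosen after seeing the data, 4 of 33 were higher by 2-fold or more, against 8.52% of the protein-coding genes. With 1 library on each side there is no test, and intervals cover counting error only. Wnt7b had 388 counts in replicate 2 and 108 in replicate 1, a ratio of 3.42 (95% interval 2.75 to 4.27). Dkk2 had 360 counts in replicate 2 and 144 in replicate 1, a ratio of 2.38 (1.95 to 2.90). Wnt4 had 425 counts in replicate 2 and 182 in replicate 1, a ratio of 2.22 (1.86 to 2.66).

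The remaining 4 rest on few counts. Wnt7a was higher in replicate 2 by 5.07-fold (1.45 to 27.2), Wnt6 by 2.85-fold (1.08 to 8.78) and Dkk1 by 3.49-fold (0.921 to 19.5), an interval that includes no difference. Wnt10b had 18 counts in replicate 2 and 0 in replicate 1, a ratio of 5.71 if replicate 1 is set to 3 counts, with an exact lower limit of 4.18 from the counts themselves. By depth, genes past 2-fold made up 4 of 7 between 10 and 100 counts, where 32.7% of protein-coding genes were as high. They made up 3 of 21 between 100 and 1000 counts, against 9.47%, and 0 of 8 at 1000 counts or more, against 0.679%. Sfrp2, Dkk3 and Wnt5a, all with over 1000 counts, had ratios of 0.98, 0.99 and 0.97, while Sfrp1 had 0.837 (0.811 to 0.864). In the other direction Rspo3 had 340 counts in replicate 2 and 516 in replicate 1, a ratio of 0.627 (0.545 to 0.720).

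Markers of several other tissues moved the same way. All 8 thymus markers with at least 10 counts and all 9 liver markers were higher in replicate 2 by 2-fold or more. So were 6 of 8 lung epithelium markers, 6 of 9 neural crest, glia and neuron markers and 2 of 4 lung mesenchyme markers. Over all protein-coding genes 9.54% were as high, and 32.7% of those between 10 and 100 counts, where some of these markers lie. Skeletal muscle had 1 of 5 and cardiomyocytes 0 of 10. The fibroblast, endothelial, endocardial and macrophage lists also had 0, and the epicardial, smooth muscle and erythroid lists 1 each. The part of other tissues in the differences of the Wnt genes was not tested. Scaling by spike-in counts shifts every log2 ratio by -0.92 relative to TMM scaling, and then 2 of the 36 genes were higher and 8 lower by 2-fold or more. The directions above are therefore relative to the bulk of the genes.

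**Figure D4:**
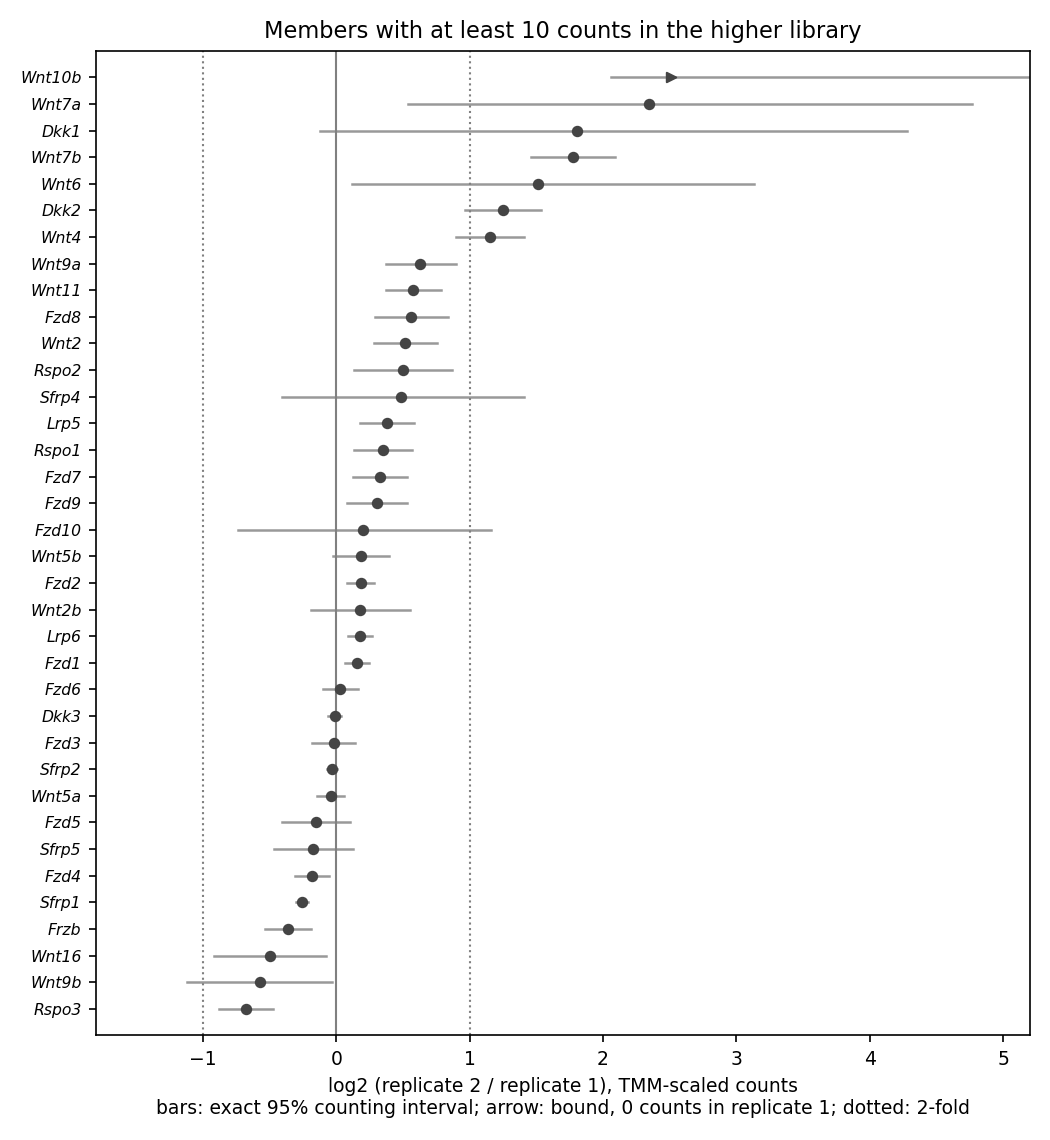
Log2 ratio of replicate 2 over replicate 1 for the 36 genes with 10 counts or more in at least 1 library, with exact 95% counting intervals. Dotted lines mark 2-fold. The arrow marks Wnt10b, placed with its 0 counts in replicate 1 set to 3, and its exact lower limit lies below the arrow. Wnt7b, Dkk2 and Wnt4 lie past the dotted line with narrow intervals, and Rspo3 is the lowest.

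Other genes of the pathway, from lists by role, were mostly present, where 58.2% of all protein-coding genes were detected. Of 7 genes for Wnt secretion and inactivation all were detected, from Gpc3, a cell-surface proteoglycan, with 370 TPM in replicate 1 and 360 TPM in replicate 2, to Notum, which strips the lipid from Wnts, with 1.21 and 2.24 TPM. Wls, which carries Wnts to the cell surface, had 81.9 and 82.9 TPM; it and the genes Ror1, Ror2 and Axin2 below were picked after their values were seen. Of 14 other receptors and R-spondin receptors, 12 were detected. Ptk7, a planar polarity co-receptor, had the highest mean with 27.8 and 40.3 TPM. Ror1 and Ror2, receptors for Wnt5a, had 10.6 and 12.4 TPM and 11.9 and 15.2 TPM.

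Lgr5, an R-spondin receptor, had 0.26 TPM in replicate 1 and 0.90 TPM in replicate 2 and Kremen2, a Dkk receptor, 0.23 and 2.70 TPM, Lgr5 under the threshold in both libraries and Kremen2 in replicate 1. Rnf43, the ligase that removes Frizzled receptors, had 1.06 and 2.65 TPM. These were the 3 of the 14 that were over 2-fold higher in replicate 2, against 9.54% of all protein-coding genes and 32.7% of those between 10 and 100 counts, where Lgr5 lies. Of 9 other inhibitors, 5 were detected, from Igfbp4, a growth factor binding protein that also inhibits Wnt signalling, with 282 and 381 TPM, to Cer1 with 0 and 0.04 TPM. Sostdc1 had 0.80 and 2.51 TPM and Draxin 0.01 and 0.13 TPM, both over 2-fold higher in replicate 2, against the same 9.54%. Draxin, with 2 and 19 counts, lies in the band of 32.7% and reached 10 counts in replicate 2 only.

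Inside the cell, 20 of 21 genes of the beta-catenin core were detected, led by Ctnnb1, which encodes beta-catenin, with 200 TPM in replicate 1 and 240 TPM in replicate 2. Apc2 was the exception, with 0.79 and 1.74 TPM. All 15 TCF/LEF factors and co-factors were detected. Tcf7l2 had the highest mean of them, with 38.1 and 35.5 TPM, and Pygo1 the lowest, with 1.73 and 2.13 TPM. Tcf7 had 4.11 TPM in replicate 1 and 29.6 TPM in replicate 2, and Lef1 had 5.24 and 16.1 TPM. Both factors are also known from early T cells; the thymus markers stood at 7.98 and 85.3 TPM in sum, and their part was not tested.

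Of 18 target and feedback genes of beta-catenin, 15 were detected and 6 were over 2-fold higher in replicate 2 (Lef1, Tcf7, Lgr5, Rnf43, Dkk1 and Isl1). Over all protein-coding genes these shares were 58.2% and 9.54%, and 32.7% were as high in the band of 10 to 100 counts that holds Lgr5 and Dkk1. The lists share genes: Lef1 and Tcf7 are also in the TCF/LEF list, and Lgr5 and Rnf43 in the list of other receptors. Dkk1 was already counted among the Dkk genes. Of the 6, only Isl1 was thus not given above, and they are no separate count of beta-catenin targets. Isl1, a factor of cardiac progenitors and of neurons, had 1.75 TPM in replicate 1 and 6.96 TPM in replicate 2. Ccnd1, a cell cycle gene, had the highest mean of the list, with 47.0 TPM in both, and Axin2, the most used readout of the pathway, had 1.40 and 1.85 TPM. In the planar polarity and calcium branch 20 of 23 genes were detected, from Rhoa, a small GTPase of the cytoskeleton, with 305 and 292 TPM, to Celsr3 with 0.06 and 0.18 TPM. Of that branch Celsr3 alone was over 2-fold higher in replicate 2, against 9.54% of all protein-coding genes. With 21 and 51 counts it lies in the band of 10 to 100 counts, where 32.7% were as high.

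**Figure D5:**
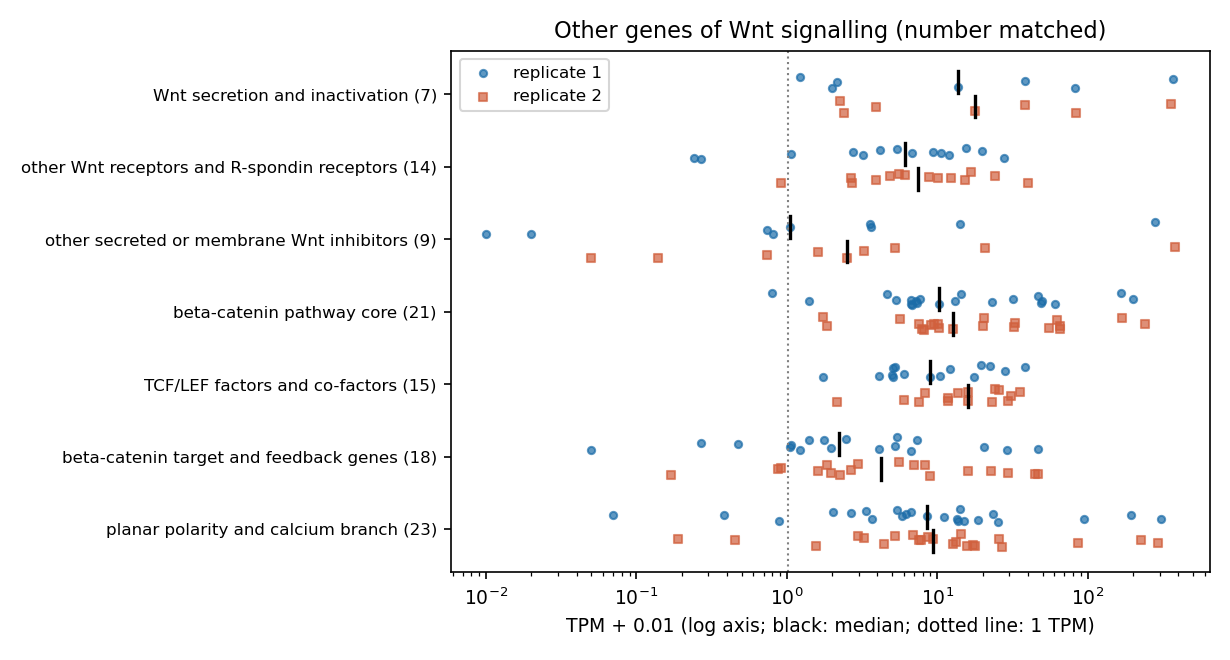
TPM + 0.01 of the genes in each of 7 lists of Wnt signalling genes, on a log axis, in replicate 1 (circles) and replicate 2 (squares); black ticks are list medians and the dotted line marks 1 TPM. All genes of the secretion list and the TCF/LEF list lie above 1 TPM, while 4 of the 9 other inhibitors are below it in at least 1 library.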

How the data were processed

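RNA-seq libraries of 2 pools of E15.5 hearts were used; per the labels' protocols, each was made from 10 ng of RNA above 200 nt with spike-ins, and the SMARTer Ultra Low manual is linked. Per the file headers, the authors quantified mm10 with GENCODE M4 from transcriptome alignments. The sources used here name no aligner or quantifier and do not say whether strand was used. Expected counts, as deposited, are not normalized. The deposited TPM, and the posterior mean TPM beside it, divide by length and scale over all features. The deposited percent is each transcript's share of its gene's TPM. Shifts of abundant RNAs such as globins therefore move every TPM.

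Identifiers of 42462 of 43346 genes matched GENCODE M21 (same build), which gave symbols and positions. The 26248 short features and 97 spike-ins stayed out of library sizes. Per kilobase of effective length, 1 count equals 0.0308 TPM (replicate 1) or 0.0345 TPM (replicate 2). Library ratios used edgeR 4.0.16 TMM factors on expected counts rounded to whole numbers, with DESeq2 1.42.0 size factors as an alternative (R 4.3.3). The scaling was run on simulated data with as many genes raised as lowered. In these libraries 1479 protein-coding genes were higher and 140 lower in replicate 2 by 2-fold or more. That simulation therefore cannot show whether the scaling holds here. Intervals are 95% Wilson (shares) or exact (ratios of 2 counts), the floor is 3 counts per library, and both cover counting error only, since reads carry no molecular identifiers. The labels call both libraries biological replicates; with 1 group, no condition was tested.

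The genes, their classes and the pathway and marker lists were chosen with earlier results of these data known. All 44 genes may be named. In each pathway list the text names the highest, the lowest, those at 0 and those over 2-fold apart. Other names are said to be chosen after their values were seen. Marker lists are given as sums and counts, with only Acta1 and Pax7 named. The branch of each ligand was assigned by hand from textbook knowledge. Coding identity is over nucleotides of the most abundant protein-coding transcript of each gene, aligned with Biopython 1.88, in place of the protein identity first planned. RefSeq promoter windows were used for 28 of the 44 genes (63.6%), too few to compare composition over the set, so that check is void. Any windows of the genes on chromosome 18, Fzd8 and Wnt8a, were left out of this count. Each of the 7 windows looked up for Wnt5b, Wnt11, Wnt9a and Wnt3a holds the first bases of an annotated transcript. Without strand, reads of a gene and of an overlapping gene on the other strand cannot be told apart: 10 of the 44 overlap one, the most abundant being Fbxl14 over Wnt5b, with 2.26 TPM in replicate 1 and 2.59 TPM in replicate 2.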

Additional observations from a re-analysis of the deposited data

How the results depend on the processing

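Of the alternatives computed, 60 left the value within the spread between replicates, or the count within 1.5 times, and 20 moved it. Leaving out either library is among the 60. For sums, ratios and shares that outcome was fixed in advance, since each of 2 libraries lies within 1 SD of their mean. Spike-in scaling turned the direction between the libraries, with 2 genes higher and 8 lower in replicate 2 by 2-fold, a balance of -6, against 7 under TMM scaling, DESeq2 size factors and total counts. The median level was 2.38 on the log2 scale over detected genes only. As CPM, without length, class sums were 95.9 for ligands, 188 for Frizzled receptors, 62.0 for Lrp5 and Lrp6, 507 for sFRPs, 176 for Dkk genes and 23.2 for R-spondins. Without the highest gene, sums were 48.4 TPM for Frizzled receptors, 3 for the co-receptors, 71.2 for sFRPs, 2.46 for Dkk genes and 7.44 for R-spondins. The log2 ratio of non-canonical over canonical ligands was 2.36 from CPM, 3.04 without the highest gene of each arm, 2.06 over detected genes and 0.86 with 5 ligands of both kinds counted as canonical. It was 1.31 with Wnt6, Wnt7a and Wnt7b counted as non-canonical and Wnt9a and Wnt16 as canonical. The antagonist over ligand ratio was 2.23 without the highest gene of each side; leaving out Dkk3 was added after seeing the data, as were the balance and the filter on mean counts. With at least 100 counts 3 genes, and with a mean of at least 10 counts 4 genes, passed 2-fold between libraries. The 20 moves follow from the genes and lengths each setting drops or adds.

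No paired analysis was possible because both libraries belong to 1 group, so that replicate numbers pair no samples. With 2 pools, SDs are rough, and of the protein-coding genes with 10 to 100 counts, 32.7% were higher in replicate 2 by 2-fold or more.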
